A study of Mus musculus with 12 samples.

Results

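The genes described here encode enzymes that break down phenylalanine, tyrosine and histidine in the liver. They were chosen by name as 9 of the 23420 genes counted in each library: Qdpr, Tat, Hpd, Hgd and Fah on the phenylalanine and tyrosine route, and Hal, Uroc1, Amdhd1 and Ftcd on the histidine route. All 9 passed the filter on low counts, with 323 to 21453 counts in a library. The data are RNA-seq counts of whole liver from C57BL/6 mice, in 12 libraries that form 6 groups of 2. In every group the Polr2m gene is floxed; it encodes Gdown1, which associates with RNA polymerase II. FF livers (Gdown1 flox/flox) and KO livers (Gdown1 flox/flox;Alb-Cre) were taken at 7 weeks, and their labels name no p53 mutation. The p53KO (Gdown1 flox/flox;p53-/-) and DKO (Gdown1 flox/flox;Alb-Cre;p53-/-) livers were taken at 8 weeks. Livers of the groups called p53KO TAM and DKO TAM were taken 24 hours after tamoxifen, at an age the labels do not give. Both are also labelled p53-/-, and DKO TAM mice carry Alb-CreERT2, a Cre recombinase that acts once tamoxifen is given, whereas the genotype of p53KO TAM mice names no Cre. Alb-Cre and Alb-CreERT2 are driven by the albumin promoter, which is active in hepatocytes, and deletion by cell type was not measured. Cre goes with the deletion in each comparison, so effects of Cre and of Gdown1 loss cannot be told apart.

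Phenylalanine is hydroxylated to tyrosine with tetrahydrobiopterin as cofactor, and tyrosine is then taken apart through homogentisate to fumarate and acetoacetate. Histidine is stripped of its ammonia to urocanate and degraded to glutamate, with a one-carbon unit handed to folate at the last step. Hepatocytes are the main site of both routes, and inherited defects in several of these enzymes cause tyrosinaemia, alkaptonuria or histidinaemia.

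The libraries held 4939408 to 8776369 counts each, and 3 counts correspond to 0.342 to 0.607 CPM, counts scaled to a common library size. The values below are CPM scaled by TMM, a method that sets libraries to 1 scale by taking most genes as unchanged. Polr2m stood at 96.7 to 100 CPM in FF against 59.4 to 64.7 in KO, at 89.1 to 103 in p53KO against 58.1 to 60.0 in DKO, and at 75.9 to 78.7 in p53KO TAM against 54.6 to 65.9 in DKO TAM. The fall passed in KO (-0.67 ± 0.13, adjusted p = 0.0024) and DKO (-0.70 ± 0.13, 2.4e-04) and not after tamoxifen (-0.36 ± 0.13, 0.063). Trp53, the p53 gene, stood at 7.94 to 22.5 CPM in FF and KO and at 2.79 to 3.97 CPM in the p53-/- controls, and at 8.13 to 10.01 CPM in the libraries labelled DKO and DKO TAM. In these last 2 groups the level lay within the range of the FF libraries (7.94 and 13.1 CPM). It was above that of their controls (1.48 ± 0.29, adjusted p = 5.0e-04, and 1.29 ± 0.28, 0.0039). Trp53 also rose in KO against FF (0.93 ± 0.24, adjusted p = 0.013), with means of 19.8 and 10.5 CPM. The mean was 8.26 CPM in DKO and 9.49 in DKO TAM, below that of KO, the deleted group whose label names no p53 mutation. The rise in DKO did not pass as different from that in KO (difference of log2 fold changes 0.55 ± 0.38, adjusted p = 0.33). Counts of the gene cannot settle whether the p53-/- label of DKO and DKO TAM holds. DKO and DKO TAM are therefore used below as labels. Those 2 genes were counted over their whole length. Where a pair of values is given for a group, it follows the order of the replicate numbers, and the DKO libraries are those titled 2 and 3. No label says that the libraries of a group come from separate animals, and the p-values cover only how these libraries vary, which may be technical.

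In FF livers, per kilobase of exon, Hpd (953 ± 80.8 CPM per kb; SD, n = 2) and Tat (868 ± 120) stood above the other 7 genes, and their libraries overlapped. Fah followed at 312, then Qdpr at 238, Hgd at 210, Hal at 188, Ftcd at 131, Uroc1 at 121 and Amdhd1 at 78.0 CPM per kb. In that order the libraries of Qdpr and Hgd overlapped, as did those of Hgd and Hal and those of Ftcd and Uroc1. The 9 genes together took 0.526% ± 0.0251 of the counts of FF libraries and 0.361% ± 0.0140 of those of KO libraries. They took 0.614% ± 0.0130 in p53KO and 0.241% ± 0.00314 in DKO livers. At 24 hours after tamoxifen the shares were 0.574% ± 0.0542 in p53KO TAM and 0.308% ± 0.0220 in DKO TAM. In the 3 comparisons of deleted with control livers, both deleted libraries lay below both controls in this share.

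**Figure D1:**
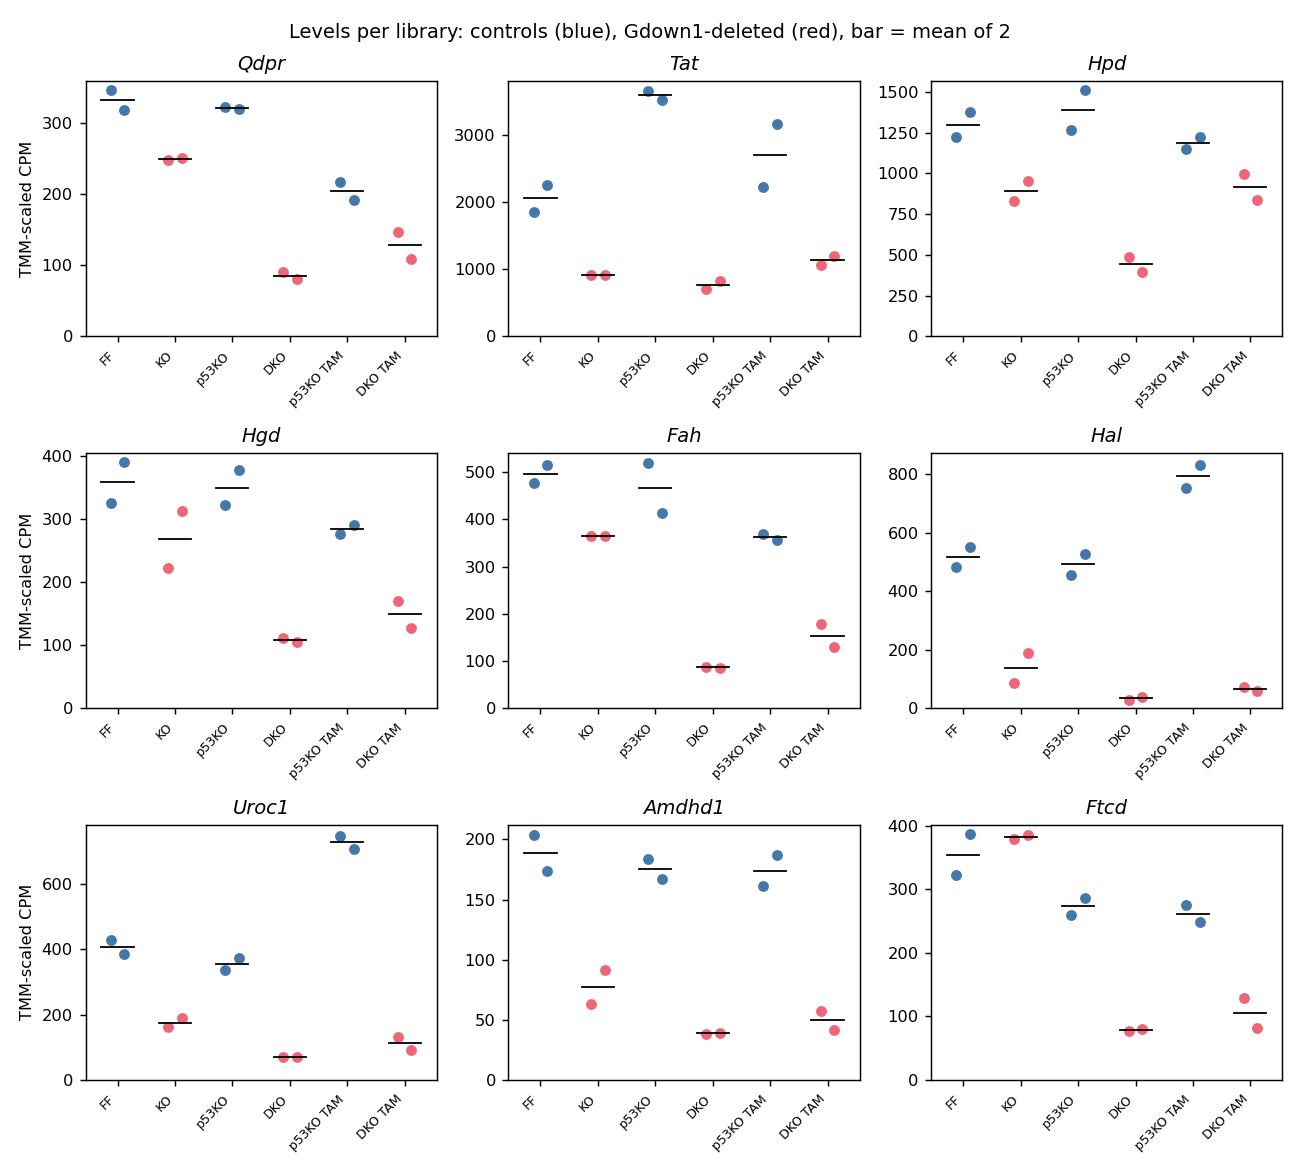
Level of each of the 9 genes in the 12 libraries, in TMM-scaled CPM on linear axes that start at 0, with 1 panel per gene. Blue points are control and red points Gdown1-deleted libraries, and bars are group means of 2. Red points lie below blue in each pair of groups, except for Ftcd in KO against FF, where they overlap.

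The DNA before the start of 3 of these genes is shown so that the gene with the largest change in DKO against p53KO (Hal), that with the smallest (Hpd) and Tat can be set side by side. Each line gives 250 bases, 5′ to 3′, on the gene's own strand and ending at the base before the start of the RefSeq transcript, from RefSeq on GRCm38.p6. They lie at chr10:93488518-93488767 (plus strand, Hal), chr8:109990186-109990435 (plus strand, Tat) and chr5:123182724-123182973 (minus strand, Hpd). The stretches of Hal and Tat end next to the gene as counted. That of Hpd does not, since the counted gene reaches only to 123182686. Capitals mark matches to the motifs searched, which are named below the sequences.
Hal: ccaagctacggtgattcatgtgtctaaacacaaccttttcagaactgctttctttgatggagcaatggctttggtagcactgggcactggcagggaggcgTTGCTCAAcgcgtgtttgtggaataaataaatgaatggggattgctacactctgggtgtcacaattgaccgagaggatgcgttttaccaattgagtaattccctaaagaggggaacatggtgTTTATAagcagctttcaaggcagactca
Tat: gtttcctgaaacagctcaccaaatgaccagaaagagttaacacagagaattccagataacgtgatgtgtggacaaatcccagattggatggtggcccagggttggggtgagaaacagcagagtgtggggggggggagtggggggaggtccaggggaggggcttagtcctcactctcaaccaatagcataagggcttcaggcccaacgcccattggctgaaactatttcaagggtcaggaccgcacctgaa
Hpd: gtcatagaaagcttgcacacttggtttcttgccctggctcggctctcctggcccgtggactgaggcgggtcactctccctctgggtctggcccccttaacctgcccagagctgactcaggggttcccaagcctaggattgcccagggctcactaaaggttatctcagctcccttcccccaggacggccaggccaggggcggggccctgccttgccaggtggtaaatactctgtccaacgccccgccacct

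Of 9 motifs searched on both strands, the Hal stretch holds a match to the C/EBP motif TTGCNNAA, 150 to 143 bases before the start, and to the TATA box TATAAA on the reverse strand, 28 to 23 bases before it. The Tat and Hpd stretches hold no match to any of the 9. Over the 9 genes, TATAAA was found before Hgd, Hal and Ftcd, and TTGCNNAA before Qdpr, Hgd and Hal. Of 32851 promoters of the same length, 12.4% hold TATAAA and 9.56% TTGCNNAA. The other 7 motifs had no match before any of the 9 genes: the glucocorticoid receptor motif (in 0.387% of promoters), the HNF1 motif (0.371%), CAAAGTCC of HNF4 (1.2%), TGTTTAC of FOXA (3.17%), TTCNNNGAA of STAT5 (7.02%), the E-box CACGTG (6.02%) and the cyclic AMP element TGACGTCA (1.55%). The GC content was 45.6% for Hal, 53.6% for Tat and 62.8% for Hpd, against a median of 52.4% over all these promoters. A match is a description of the letters and shows no binding.

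KO is compared with FF in livers whose labels give no p53 mutation. Here 5 of the 9 genes fell: Tat and Hpd on the tyrosine route, and Hal, Uroc1 and Amdhd1 on the histidine route. None of the 9 rose, and Ftcd, the last step of histidine breakdown, stood at the FF level. Over all 13693 genes tested, 7.88% were called lower in this comparison, at an adjusted p under 0.05. The median log2 fold change was -0.54 over the 9 genes and 0.02 over all genes tested.

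In the libraries labelled DKO against those labelled p53KO, all 9 genes fell, by 3.15-fold (Hpd) to 14.7-fold (Hal). In that comparison 25.7% of all genes tested were called lower. The median log2 fold change was -2.18 over the 9 genes, -1.91 over the 5 of the tyrosine route and -2.25 over the 4 of the histidine route, against 0.01 over all genes. At 24 hours after tamoxifen, in DKO TAM against p53KO TAM, 8 of the 9 fell, all but Hpd, and 10.1% of all genes were called lower. The medians there were -1.25 over the 9, -0.93 over the tyrosine route and -2.25 over the histidine route, against 0.01 over all genes. Both deleted libraries lay below both controls for 8 of the 9 genes in KO against FF and for 9 of 9 in the other 2 comparisons. Among all genes tested this held for 27.3% in KO against FF, 37.3% in DKO against p53KO and 29.3% after tamoxifen. In bulk RNA of this kind, fewer hepatocytes and less of an mRNA per hepatocyte cannot be told apart.

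**Figure D2:**
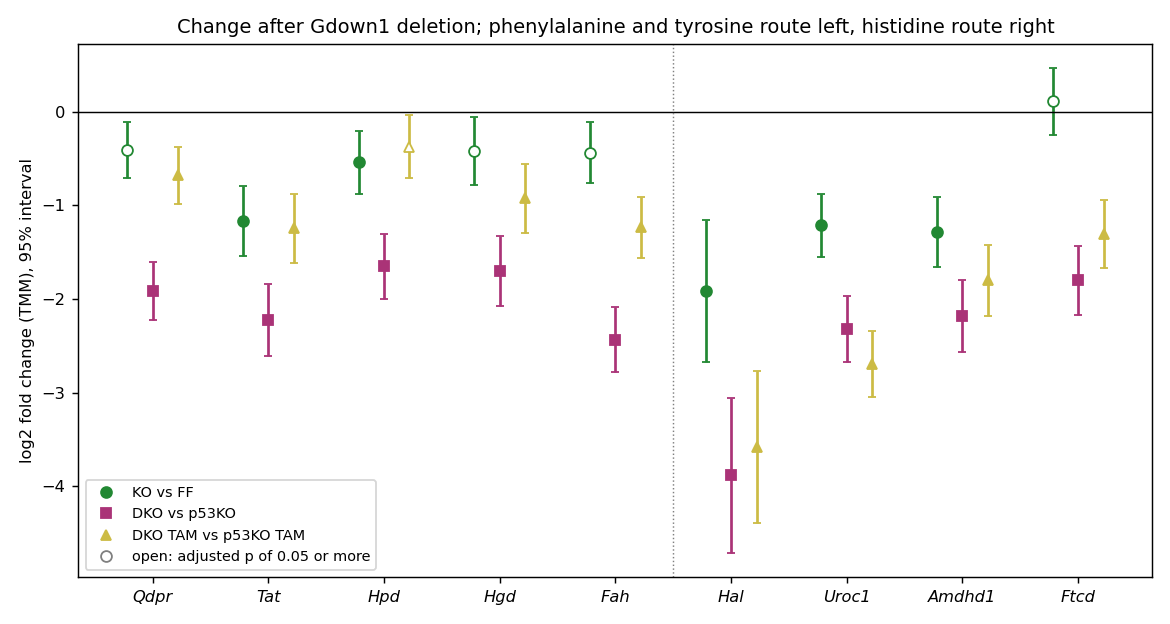
Log2 fold change of each gene in the 3 comparisons of deleted with control livers, with bars for the 95% interval of the fit and filled points for genes that passed an adjusted p of 0.05. Hal lies lowest in each comparison, at -1.92, -3.88 and -3.58, and the open points are Qdpr, Hgd, Fah and Ftcd in KO against FF and Hpd after tamoxifen.

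Qdpr (chromosome 5, 45434032 to 45450229, minus strand, mm10, 7 exon blocks) encodes dihydropteridine reductase, which restores the tetrahydrobiopterin used in making tyrosine from phenylalanine. It stood at 345 and 318 CPM in FF and at 248 and 251 CPM in KO. The groups did not overlap, yet the difference of -0.41 ± 0.14 (log2, SE) missed the threshold (adjusted p = 0.062). In p53KO it stood at 322 and 320 CPM and in DKO at 90.4 and 80.3 CPM, a 3.76-fold fall (-1.91 ± 0.15, adjusted p = 2.7e-08). After tamoxifen the values were 217 and 192 CPM in p53KO TAM and 147 and 109 CPM in DKO TAM (-0.68 ± 0.14, adjusted p = 0.0035). That last call was lost without p53KO TAM replicate 1 (adjusted p = 0.054), without DKO TAM replicate 2 (0.057) and when libraries were scaled by their totals alone (0.082). In GENCODE M21 its exons share 332 bases with an antisense gene, Gm42413. The headers of the 7-week files give no strand option, so reads of the 2 could not be separated there, and strand handling in the other 8 libraries is not given in the sources used here. No exon base of the 9 genes is shared with another counted gene.

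Tat (chromosome 8, 109990436 to 109999804, plus strand, 12 exon blocks), tyrosine aminotransferase, catalyses the first step of tyrosine breakdown and is a classic target of glucocorticoids and of fasting. Its FF libraries stood at 1862 and 2264 CPM and its KO libraries at 922 and 918 CPM. The KO values were 2.24-fold lower and did not overlap with FF (-1.17 ± 0.18, adjusted p = 2.9e-04). Among the controls it was highest in p53KO, at 3662 and 3534 CPM, against 707 and 830 CPM in DKO (-2.23 ± 0.18, adjusted p = 5.0e-08). The p53KO TAM libraries were 2231 and 3172 CPM and the DKO TAM libraries 1071 and 1206 CPM (-1.25 ± 0.18, adjusted p = 1.4e-04). The 3 deleted groups thus lay between 707 and 1206 CPM, whereas the 3 control groups spread from 1862 to 3662 CPM.

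Hpd (chromosome 5, 123171807 to 123182686, minus strand, 14 exon blocks) encodes the dioxygenase that turns hydroxyphenylpyruvate, the product of Tat, into homogentisate. In FF it stood at 1222 and 1377 CPM and in KO at 831 and 954 CPM (-0.54 ± 0.16, adjusted p = 0.030). This call was lost without any 1 of the 4 libraries compared (adjusted p = 0.052 to 0.19) and with library totals alone (0.17). The p53KO libraries stood at 1266 and 1511 CPM and the DKO libraries at 490 and 393 CPM, which was 3.15-fold lower (-1.65 ± 0.16, adjusted p = 4.1e-07). After tamoxifen Hpd was the only gene of the 9 that did not pass: 1150 and 1226 CPM against 998 and 836 CPM, a difference of -0.37 ± 0.16 (adjusted p = 0.12, 95% interval -0.71 to -0.04 before adjustment).

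Hgd (chromosome 16, 37580153 to 37632026, plus strand, 14 exon blocks), homogentisate dioxygenase, opens the aromatic ring. It stood at 325 and 391 CPM in FF and at 222 and 313 CPM in KO (-0.42 ± 0.17, adjusted p = 0.11); without KO replicate 2, the higher of the KO libraries, the difference passed (-0.70, adjusted p = 0.030). The DKO libraries, at 111 and 104 CPM, lay far below the p53KO libraries, at 322 and 377 CPM (-1.70 ± 0.18, adjusted p = 7.7e-07). After tamoxifen it fell from 277 and 290 CPM to 170 and 128 CPM (-0.93 ± 0.17, adjusted p = 0.0016).

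Fah (chromosome 7, 84585159 to 84605942, minus strand, 14 exon blocks), fumarylacetoacetate hydrolase, is the last enzyme of the tyrosine route. Its KO libraries were alike at 365 and 365 CPM, below 476 and 515 CPM in FF, and the difference missed the threshold (-0.44 ± 0.15, adjusted p = 0.065). It passed with no expression filter (adjusted p = 0.047) and when only those 4 libraries were fitted (0.049). In DKO it stood at 88.01 and 84.6 CPM against 519 and 413 CPM in p53KO, a 5.40-fold fall and the largest of the tyrosine route (-2.43 ± 0.16, adjusted p = 6.5e-09). After tamoxifen it fell from 369 and 357 CPM to 179 and 129 CPM (-1.24 ± 0.16, adjusted p = 4.6e-05).

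Within the tyrosine route, Fah and Hpd did not move alike. Per kilobase, Hpd was 2.98 and 3.11 times as high as Fah in FF, and 2.65 and 3.04 times in KO. The ratio was 2.84 and 4.26 in p53KO and 6.47 and 5.40 in DKO, and 3.63 and 3.99 in p53KO TAM against 6.50 and 7.54 in DKO TAM. Both DKO and both DKO TAM libraries had a higher ratio than both of their controls, while KO and FF overlapped.

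Hal (chromosome 10, 93488768 to 93516743, plus strand, 20 exon blocks), histidine ammonia-lyase, makes urocanate in the first step of histidine breakdown. It had the largest fold change of the 9 genes in each of the 3 comparisons. In FF it stood at 483 and 552 CPM and in KO at 85.4 and 189 CPM, and the KO libraries differed more from each other than those of any other group did in relation to their mean. The fall was 3.77-fold (-1.92 ± 0.33, adjusted p = 0.0058), and it did not pass in a fit of those 4 libraries alone (adjusted p = 0.12). In p53KO it stood at 456 and 528 CPM and in DKO at 27.4 and 39.4 CPM, 14.7-fold lower (-3.88 ± 0.36, adjusted p = 2.7e-05). After tamoxifen the p53KO TAM libraries stood at 752 and 833 CPM and the DKO TAM libraries at 74.0 and 58.7 CPM, 11.9-fold lower (-3.58 ± 0.36, adjusted p = 2.5e-04). Of all genes tested, 0.204% had a lower log2 fold change than Hal in that last comparison. By level per kilobase, Hal was the third of the 9 genes in p53KO TAM, at 287 CPM per kb, and the last of them in DKO, at 12.1 CPM per kb.

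Uroc1 (chromosome 6, 90333289 to 90364548, plus strand, 20 exon blocks), urocanase, hydrates urocanate. It stood at 428 and 385 CPM in FF and at 160 and 190 CPM in KO, a 2.32-fold fall (-1.21 ± 0.16, adjusted p = 8.8e-05). The p53KO libraries at 336 and 373 CPM compare with 71.1 and 70.5 CPM in DKO (-2.32 ± 0.17, adjusted p = 1.3e-08). The p53KO TAM libraries were the highest, at 747 and 706 CPM, and those of DKO TAM stood at 133 and 91.6 CPM, 6.47-fold lower (-2.69 ± 0.17, adjusted p = 3.9e-08).

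Amdhd1 (chromosome 10, 93523338 to 93540033, minus strand, 9 exon blocks), imidazolonepropionase, carries out the third step. It stood at 204 and 174 CPM in FF and at 63.5 and 91.1 CPM in KO (-1.29 ± 0.18, adjusted p = 1.6e-04). In DKO it stood at 38.6 and 38.9 CPM against 184 and 167 CPM in p53KO (-2.18 ± 0.18, adjusted p = 9.1e-08). The values after tamoxifen were 161 and 187 CPM in p53KO TAM and 57.7 and 41.8 CPM in DKO TAM (-1.80 ± 0.18, adjusted p = 5.5e-06). Hal and Amdhd1 are neighbours that are read towards each other, with 6594 bases and no other counted gene between them. Their levels over the 12 libraries had a Pearson r of 0.978 on the log2(CPM + 1) scale, given as a description because the libraries share their group effects. Per kilobase, Hal was 2.08 and 2.79 times as high as Amdhd1 in FF and 1.18 and 1.824 times in KO. The ratio was 2.18 and 2.78 in p53KO against 0.623 and 0.889 in DKO, and 4.10 and 3.91 in p53KO TAM against 1.12 and 1.23 in DKO TAM. It was lower in both deleted libraries than in both controls each time.

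Ftcd (chromosome 10, 76575648 to 76590338, plus strand, 14 exon blocks), formimidoyltransferase cyclodeaminase, passes the one-carbon unit of histidine to tetrahydrofolate. In KO it stood at 379 and 385 CPM, within the FF libraries of 322 and 386 CPM (0.11 ± 0.17, adjusted p = 0.72, 95% interval -0.25 to 0.46). The interval excludes a fall of the size seen for the other 3 genes of the route. In DKO, by contrast, it fell from 260 and 286 CPM to 76.3 and 80.3 CPM (-1.80 ± 0.17, adjusted p = 3.6e-07), and after tamoxifen from 274 and 249 CPM to 129 and 82.1 CPM (-1.31 ± 0.17, adjusted p = 7.1e-05).

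The mRNA ratio of Ftcd to Hal, the genes of the last and the first step of histidine breakdown, differed between deleted and control livers. Per kilobase, Ftcd was 0.679 and 0.712 times as high as Hal in FF and 4.52 and 2.07 times in KO. In p53KO the ratio was 0.580 and 0.551, and in DKO 2.84 and 2.08. In p53KO TAM it was 0.371 and 0.304, and in DKO TAM 1.78 and 1.42. The 6 deleted libraries had more Ftcd than Hal per kilobase, and the 6 control libraries less. The ratio of Ftcd to Uroc1 was also higher in both deleted libraries than in both of their controls each time. It did not split all deleted from all control libraries, with FF replicate 2 at 1.24 and the DKO TAM libraries at 1.21 and 1.11. A ratio within a library does not depend on how libraries are scaled.

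**Figure D3:**
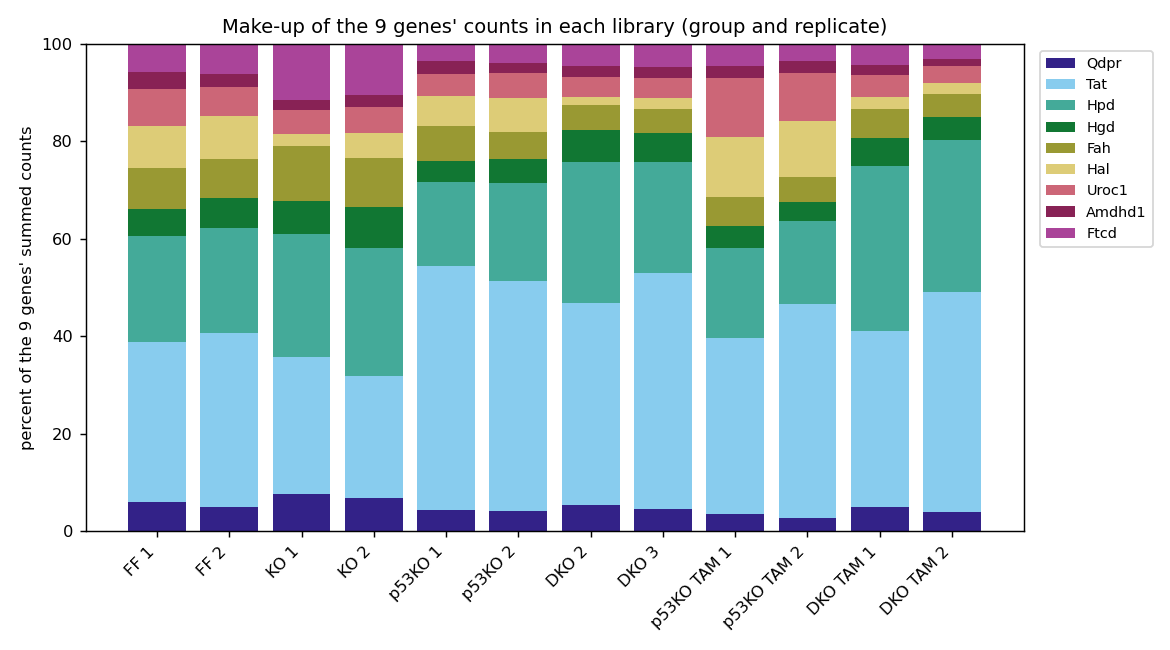
Share of each gene in the summed counts of the 9 genes, in percent, as stacked bars with 1 bar per library. Hal falls from a mean of 8.60% to 3.89% (KO), from 6.63% to 1.95% (DKO) and from 11.9% to 2.34% (DKO TAM), while Ftcd rises to 11.1% in KO from 5.88% in FF.

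Within the counts of the 9 genes, those of the histidine route held 25.4% and 23.5% in FF and 21.01% and 23.4% in KO. They held 16.9% and 18.0% in p53KO and 12.6% and 13.3% in DKO, and 31.3% and 27.4% in p53KO TAM against 13.3% and 10.2% in DKO TAM. The histidine share was thus below that of the controls in both libraries of each deleted group, with the narrowest gap in KO, where Ftcd held its level. Tat held 34.2% of these counts in FF and 26.6% in KO, against 48.5% in p53KO and 44.9% in DKO.

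The effect of deletion was also compared between experiments by testing the difference of the log2 fold changes. All 9 genes fell further in DKO against p53KO than in KO against FF, a difference called lower for 12.9% of all genes tested. It ran from -0.89 ± 0.25 (Amdhd1, adjusted p = 0.017) to -1.99 ± 0.22 (Fah, adjusted p = 2.5e-05). For Ftcd, which did not pass in KO, the difference was -1.91 (adjusted p = 7.5e-05). The call for Hal (-1.97, adjusted p = 0.017) was lost without FF replicate 1, p53KO replicate 1, p53KO replicate 2 or DKO replicate 2 (-1.73 to -2.08, adjusted p = 0.052 to 0.069). That for Amdhd1 was lost without FF replicate 2, KO replicate 2, p53KO replicate 1 or DKO replicate 3 (-0.57 to -0.90, adjusted p = 0.050 to 0.12). Hal also missed the threshold with no expression filter (0.051), and Amdhd1 did with upper quartile scaling (0.055). With library totals alone 6 of the 9 passed, without Tat (0.079), Uroc1 (0.054) and Amdhd1 (0.25). The 2 experiments differ in the p53 label, which Trp53 counts in DKO cannot settle, by a week of age, and in being separate experiments. Those cannot be told apart.

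Set against the 24-hour experiment, 5 of the 9 differences passed, all on the tyrosine route. These 5 genes had fallen less at 24 hours after tamoxifen than in the 8-week DKO livers, with differences of -1.23 (Qdpr, adjusted p = 3.6e-04), -0.98 (Tat, 0.0072), -1.28 (Hpd, 6.1e-04), -0.77 (Hgd, 0.026) and -1.20 (Fah, 8.1e-04). Among all genes, 14.2% were called lower in this difference. For the 4 histidine genes no difference passed: -0.30 for Hal (95% interval -1.36 to 0.75, adjusted p = 0.67), 0.37 for Uroc1 (-0.10 to 0.85, 0.23), -0.38 for Amdhd1 (-0.90 to 0.14, 0.27) and -0.49 for Ftcd (-1.001 to 0.01, 0.14). The interval of Hal takes in all 5 differences of the tyrosine route. That of Ftcd takes in those of Hgd and Tat, that of Amdhd1 only that of Hgd, and that of Uroc1 none. Whether the routes differ from each other was not tested. The call for Hgd was lost without p53KO replicate 2, either DKO library, either p53KO TAM library or DKO TAM replicate 1 (adjusted p = 0.050 to 0.11), and that for Tat without p53KO TAM replicate 1 (0.051). In that last fit 3 of the 9 genes passed, and the lowest of the 12 such counts was 3 and the highest 6. Hgd also missed the threshold with upper quartile scaling (0.085). Uroc1 was called higher without DKO TAM replicate 1 (0.66, adjusted p = 0.033), and Ftcd was called lower without DKO TAM replicate 2 (-0.79, 0.0088). With library totals alone, 3 of the 9 were called lower (Qdpr, Hpd and Fah) and Uroc1 was called higher (0.79, adjusted p = 0.013), since that scale moves the median of all genes by 0.42 in this difference. The 24-hour and the 8-week experiments also differ in Cre (Alb-CreERT2 against Alb-Cre) and in tamoxifen. The age of the 24-hour livers is not given, so time since deletion cannot be told apart from these. Polr2m itself changed by -0.36 after tamoxifen and by -0.70 in DKO against p53KO. DKO against p53KO enters both differences, so the 2 share those libraries.

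**Figure D4:**
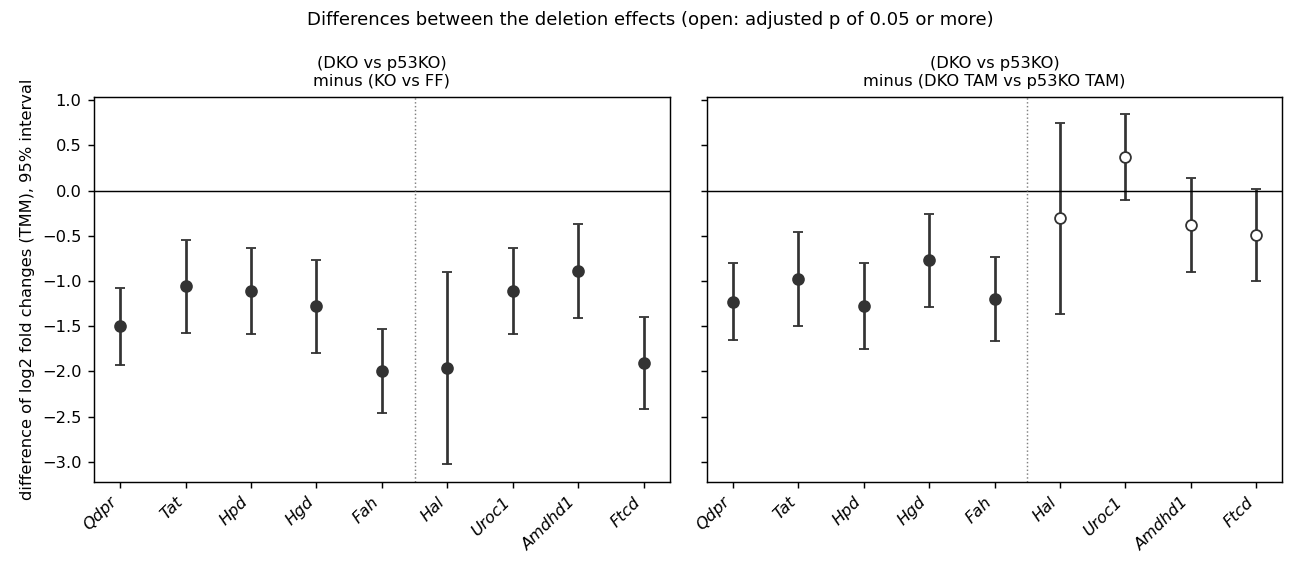
Difference of log2 fold changes for each gene, between DKO against p53KO and KO against FF (left) and between DKO against p53KO and DKO TAM against p53KO TAM (right), with bars for the 95% interval. All 9 genes lie below 0 and are filled (passed) on the left; on the right the 5 genes of the tyrosine route are filled and the 4 of the histidine route are open, with Uroc1 at 0.37.

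The control groups of the 3 experiments did not share 1 level. The p53KO and FF groups differ in the p53 label, by a week of age and in the experiment. In p53KO against FF, Tat was called higher (0.80 ± 0.17, adjusted p = 0.035), where 0.592% of all genes were. That call was lost with upper quartile scaling (adjusted p = 0.057) and without any 1 of the 4 libraries compared (0.062 to 0.36). The other 8 genes lay between -0.38 (Ftcd, adjusted p = 0.39) and 0.10 (Hpd), and none passed. Of 15 genes induced by glucocorticoids or fasting, a list without Tat, 4 were called higher in p53KO than in FF and none lower, with a median of 0.92. They include Dusp1, a phosphatase of MAP kinases (65.0 against 18.4 CPM, adjusted p = 0.016), Fkbp5, a chaperone partner of the glucocorticoid receptor (1.04 ± 0.23, 0.040), and Ppargc1a, a coactivator of fasting metabolism (0.92 ± 0.15, 0.0056). In the deletion comparisons, where Tat fell, 2 of the list fell in KO (median 0.24), 6 fell and 4 rose in DKO (-0.03), and 1 fell after tamoxifen (-0.02). Of all genes, 7.88%, 25.7% and 10.1% were called lower there, and 25.7% higher in DKO. The summed level of the list overlapped between FF and KO. It was 5600 to 6447 CPM in p53KO and 1946 to 2222 in DKO, and 4736 to 4912 in p53KO TAM and 2245 to 3094 in DKO TAM. Pck1, a gene of the list, weighs heavily in these sums (means of 4328 CPM in p53KO and 830 in DKO). The part of feeding state or stress in the level of Tat was not tested. No test was fitted between p53KO and p53KO TAM, and their mean levels were 492 and 793 CPM for Hal, 354 and 727 CPM for Uroc1 and 321 and 205 CPM for Qdpr.

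Over the 12 libraries, the level of a gene on the log2(CPM + 1) scale was compared with the mean of the other 8. The correlation was lowest for Tat (r = 0.82) and Ftcd (0.83) and highest for Amdhd1 (0.97), Hgd (0.96) and Hal (0.96). The pairs most alike were Hal and Uroc1 (0.979) and Qdpr and Fah (0.979), and the pair least alike was Tat and Ftcd (0.504). Of 6277 other genes at 20 CPM or more, those nearest to the mean pattern of the 9 were Hrsp12, Gpld1 and Rmdn1 (0.99 each), then Ces3b and Fggy (0.98 each). Those nearest to Tat alone were Gabpa and Bmpr2 (0.97 each), Actr8, Phf20l1 and Ubxn8 (0.96 each). The libraries share their group effects, so these are descriptions without a test.

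Counts for the lists that follow stand beside the shares of all genes called lower, 7.88% in KO, 25.7% in DKO and 10.1% after tamoxifen, and called higher, 6.92%, 25.7% and 8.61%. A count near or below these shares says nothing particular to its list. Among 7 genes that make or recycle biopterin, the cofactor system of Qdpr, 1 fell and 1 rose in KO, 6 fell and none rose in DKO, and 3 fell and 1 rose after tamoxifen. Their medians were -0.11, -0.99 and -0.63. Pts, which makes the pterin precursor of the cofactor, fell in each comparison (-1.23 ± 0.23, adjusted p = 0.0018; -1.47 ± 0.22, 3.2e-05; -1.77 ± 0.24, 8.5e-05), from 16.4 to 6.95 CPM in KO. Gch1, the entry enzyme of biopterin synthesis, fell in DKO (-1.14 ± 0.17, adjusted p = 5.1e-05) and after tamoxifen (-0.64 ± 0.18, 0.020), and so did Pcbd1, which recycles the oxidised cofactor (-1.05 and -0.67). Spr, the reductase of the last synthetic step, rose in KO (0.65 ± 0.15, adjusted p = 0.0063) and after tamoxifen (0.47 ± 0.15, 0.034), and fell in DKO (-0.42 ± 0.15, 0.022).

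Of 7 further genes of tyrosine metabolism, 1 fell in KO, 6 fell and 1 rose in DKO, and 3 fell and 1 rose after tamoxifen. Gstz1, the maleylacetoacetate isomerase that acts between Hgd and Fah, fell in all 3 (-0.64 ± 0.14, adjusted p = 0.0050; -1.91 ± 0.14, 2.1e-08; -0.65 ± 0.14, 0.0039). Its level was 854 CPM in FF and 549 in KO, and 870 in p53KO and 232 in DKO. Maoa, a monoamine oxidase, was the gene that rose, in DKO by 1.34 ± 0.24 and after tamoxifen by 0.81 ± 0.24 (adjusted p = 2.1e-04 and 0.029).

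Of 5 other histidine genes tested, 1 fell in each comparison and none rose: Hnmt, which methylates histamine, in KO and after tamoxifen (-0.68 ± 0.15 in each, adjusted p = 0.0049 and 0.0053), and Hdc, which makes histamine, in DKO (-1.40 ± 0.32, adjusted p = 0.0049). The 1 in DKO is below the share of all genes called lower. In folate metabolism, which receives the one-carbon unit from Ftcd, 2 of 14 genes fell and none rose in KO, 8 fell and 3 rose in DKO, and 6 fell and 1 rose after tamoxifen. The 3 and the 1 that rose are below the shares of all genes called higher. Aldh1l1, which oxidises formyl-folate, fell in each (-0.60 ± 0.15, adjusted p = 0.014; -2.25 ± 0.16, 1.2e-08; -1.17 ± 0.15, 7.1e-05), as did Shmt1, the cytosolic serine hydroxymethyltransferase (-0.85, -1.53 and -1.08). The mitochondrial enzyme Mthfd2 rose from 2.59 to 9.37 CPM in DKO (adjusted p = 8.6e-05) and from 2.18 to 4.71 CPM after tamoxifen (0.030).

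Breakdown genes of other amino acids give the closest setting. Of 49 tested, 12 fell and 3 rose in KO (median -0.04), 45 fell and 1 rose in DKO (median -1.32), and 15 fell and 4 rose after tamoxifen (median -0.26). Pccb, a subunit of the carboxylase of propionyl-CoA, fell in each (-1.28, -2.22 and -1.41). Tdo2, which opens the ring of tryptophan, fell from 1678 to 933 CPM in KO and from 1753 to 186 CPM in DKO (-3.24 ± 0.18, adjusted p = 8.8e-10). After tamoxifen it stood at 557 CPM in p53KO TAM and 417 in DKO TAM (-0.42 ± 0.17, adjusted p = 0.091). Of 12 amino acid transporters, 1 fell in KO (Slc38a4, -0.97 ± 0.21, adjusted p = 0.0063), 6 fell and 3 rose in DKO (the 1 in KO and the 3 are near the shares of all genes), and none passed after tamoxifen by edgeR. There 2 had an unadjusted p under 0.05, and DESeq2 and limma-voom each called 1 lower.

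Hepatocytes near the portal vein are the known home of much amino acid breakdown. Of 14 periportal genes, 4 fell in KO (median -0.53), 10 fell and 1 rose in DKO (-1.93), and 8 fell after tamoxifen (-1.04). Hsd17b6, a steroid dehydrogenase of that zone, fell from 101 to 13.2 CPM in KO and from 27.8 to 1.09 CPM after tamoxifen (-2.92 ± 0.46, adjusted p = 0.0056, and -4.58 ± 0.67, 0.0033). Of 15 genes of hepatocytes near the central vein, 4 fell and 2 rose in KO (median -0.25). In DKO 10 of them fell and 1 rose (-1.21), and after tamoxifen 2 fell and 2 rose (0.17). Glul, glutamine synthetase, fell in KO and DKO (-1.61 and -1.84) and stood at 0.32 ± 0.21 after tamoxifen (adjusted p = 0.33). Of 17 transcription factors of hepatocytes, 6 fell in KO and 12 in DKO and none rose, and none passed after tamoxifen by edgeR. There 4 had an unadjusted p under 0.05, DESeq2 called 0 and limma-voom 1 lower. Cebpa, a C/EBP factor, stood at 231 CPM in FF and 158 in KO (-0.55 ± 0.17, adjusted p = 0.038), at 214 in p53KO and 58.5 in DKO (-1.88 ± 0.17, 2.7e-07), and at 143 in p53KO TAM and 111 in DKO TAM (-0.37 ± 0.17, 0.15).

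Most markers of hepatocytes fell as well. Of 7 such markers tested, 4 fell in KO (median -0.50), 7 in DKO (-1.50) and 5 after tamoxifen (-0.67). The markers found in the files summed to 84308 to 95776 CPM in FF and 48550 to 54480 in KO, to 97092 to 99743 in p53KO and 25230 to 29550 in DKO, and to 99935 to 100786 in p53KO TAM and 37578 to 42615 in DKO TAM. Albumin (Alb) weighs heavily in these sums. Its mean was 72668 CPM in p53KO TAM and 17060 in DKO TAM, most of the drop in the sum there. In that comparison the markers ranged from -2.09 (Alb) to 0.24, so the sum overstates the fall of the others. None of the markers found stood at 0 in any library. Their part in the fall of the 9 genes was not tested.

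Among markers of other cells, 5 of 6 for cholangiocytes, 9 of 9 for fibroblasts and stellate cells and 7 of 7 for macrophages rose in DKO, with none lower, where 25.7% of all genes were called higher. Neither of the 2 lymphocyte markers tested passed in any of the 3 comparisons by edgeR, DESeq2 or limma-voom, and by edgeR 1 had an unadjusted p under 0.05, after tamoxifen. The 1 erythroid marker tested, Alas2, fell from 220.2 to 36.6 CPM in DKO (-2.59 ± 0.14, adjusted p = 8.2e-10) and did not pass in the other 2. Their sums went from 66.3 to 67.8 CPM in p53KO to 267 to 299 in DKO for cholangiocytes, from 274 to 276 CPM to 1205 to 1304 for fibroblasts and stellate cells, and from 465 to 497 CPM to 1056 to 1129 for macrophages. In KO against FF, none of the 6, 1 of the 9 and 1 of the 7 rose, and after tamoxifen 1, 0 and 1 did. Of 8 endothelial markers, 1 rose in KO, 3 fell and 2 rose in DKO, and 4 fell after tamoxifen. The 2 that rose in DKO are near the share of all genes called higher. Genes of dividing cells rose in 5 of 8, 8 of 8 and 8 of 8 cases, with sums of 27.5 to 59.4 CPM in FF and 122 to 128 in KO, of 40.1 to 47.3 in p53KO and 1128 to 1138 in DKO, and of 40.5 to 43.4 in p53KO TAM and 106 to 148 in DKO TAM. Of the 8 cholangiocyte markers, 1 stood at 0 in each library but DKO replicate 2, and no fibroblast, macrophage or endothelial marker did in any. The part of these cells in the results for the 9 genes was not tested.

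The scale on which libraries are compared sets the size of each change. With library totals alone, the median of all genes moved up by 0.26 in KO against FF, by 0.77 in DKO against p53KO and by 0.35 after tamoxifen, and genes called lower and higher went from 1079 and 947 to 550 and 2744, from 3525 and 3516 to 959 and 8823, and from 1380 and 1179 to 586 and 4346. Of the 9 genes, 4, 9 and 7 were then called lower and none higher. Upper quartile scaling moved the median by 0.22 in DKO against p53KO and left 2435 genes lower and 4662 higher, with all 9 genes still lower. Relative to the median of all genes, the median of the 9 stood at -0.57, -2.19 and -1.26 with TMM and at -0.57, -2.19 and -1.25 with library totals.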

How the data were processed

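The authors deposited a table of raw read counts by gene for each of 12 libraries made from liver RNA with a SMARTer stranded total RNA kit, per the labels' protocols. Per the submitters' processing notes, CASAVA 1.82, HISAT2 and featureCounts were used with mm10 (GRCm38). Per the file headers of the 7-week libraries, featureCounts 1.6.4 counted exons by gene without an option for strand, pairs or multiple mapping. Reads of overlapping or near-identical genes can be shared or lost in such counting. For the other 8 libraries the program's options are not given in the sources used here.

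Libraries were grouped by title and description, and none was left out. In R 4.3.3 with edgeR 4.0.16, genes were filtered with filterByExpr (minimum count 10), scaled by TMM and fitted with 1 mean per group over all 12 libraries (6 residual degrees of freedom, biological coefficient of variation 0.124). The robust quasi-likelihood F test was used with Benjamini-Hochberg adjustment over all 13693 genes tested, which held 99.9% of the counts, and a gene was called at an adjusted p under 0.05. SE was derived from each log2 fold change and its F value, and intervals are at 95%. CPM were computed here. The spread is pooled over groups because each has 2 libraries.

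The 9 genes, the other lists, the rule for names and the alternatives were chosen with earlier results of these data known. All 9 genes were named; of each other list, up to 4 genes per comparison with the smallest p could be named, and fewer were. The folate list leaves out 1 gene that is not reported here. Likeness was ranked by Pearson r among genes at a mean of 20 CPM or more. Promoter sequences were taken from RefSeq for Hal, Tat and Hpd, and all 9 genes matched an entry. Alternatives were other scalings, filters, DESeq2 1.42.0, limma-voom (limma 3.58.1), only the libraries compared, a replicate block, an adjusted p under 0.01 and each library left out. On simulated counts for KO against FF, DKO against p53KO and DKO TAM against p53KO TAM, with 13096, 13074 and 13031 genes, the test recovered 2-fold changes in 80%, 79% and 74% of cases and 4-fold ones in 97%, 96% and 98%, with 7 false calls in each. Only a small part of the genes was changed there, as many up as down, and the others kept the same mean in every group. The simulation thus does not cover shifts in as many genes as were called in DKO against p53KO.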

Additional observations from a re-analysis of the deposited data

Results flagged for a closer look

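These results differed between experiments by a test of the difference of log2 fold changes. DKO against p53KO went further down than KO against FF for Qdpr (-1.50), Tat (-1.06), Hpd (-1.11), Hgd (-1.28), Fah (-1.99), Hal (-1.97), Uroc1 (-1.11), Amdhd1 (-0.89) and Ftcd (-1.91). DKO against p53KO also went further down than DKO TAM against p53KO TAM for Qdpr (-1.23), Tat (-0.98), Hpd (-1.28), Hgd (-0.77) and Fah (-1.20). The 2 sets share the DKO and p53KO libraries. No group has 4 or more libraries, so single libraries were not screened as outliers.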

How the results depend on the processing

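The count of the 9 genes called lower in DKO against p53KO was 9 under each alternative run. In KO against FF it ranged from 4 to 8 (5 as reported), after tamoxifen from 7 to 8 (8), and for the further fall in DKO than in KO from 6 to 9 (9). Leaving out 1 library in turn gave 4 to 7 in KO against FF, 9 to 9 in DKO against p53KO, 7 to 8 after tamoxifen, 7 to 9 for the difference from KO against FF, 3 to 6 for the difference from the 24-hour experiment, and 0 to 1 for p53KO against FF. The 1 call in p53KO against FF went to 0 with upper quartile scaling, with the replicate block and at an adjusted p under 0.01. With library totals alone, the log2 ratio of the summed 9 genes was -0.54 in KO against FF (-0.79 with TMM), -1.35 in DKO against p53KO (-2.12) and -0.90 after tamoxifen (-1.24), and the difference from the 24-hour experiment changed sign for Hal (0.11) and Amdhd1 (0.038), since that scale raises all such values by 0.42. Left-out libraries turned the sign of values near 0 that had not passed: Ftcd in KO against FF ranged from -0.017 to 0.24, and in p53KO against FF Qdpr ranged from -0.11 to 0.012, Amdhd1 from -0.22 to 0.014, Hgd from -0.16 to 0.10, Hal from -0.18 to 0.028, Hpd from -0.038 to 0.22 and Fah from -0.26 to 0.067. Same-numbered libraries deviated together with r of 0.15 in the 7-week, -0.10 in the 8-week and -0.01 in the tamoxifen experiment, so the numbers were not shown to pair the libraries. In p53KO against FF the replicate block also turned the sign of Hgd (0.12), Fah (0.032) and Hal (0.061), none of which passed. A block with the DKO numbers crossed, chosen after seeing the data, gave 8 calls in KO against FF and turned Hgd (0.075), Fah (0.0052) and Hal (0.31) in p53KO against FF, again without a call. Libraries of 1 group differed by more than sampling noise, with a chi-square per degree of freedom of 5.67 to 15.9. Each of the 9 genes had at least 323 counts in a library, and the number of libraries, 2 per group, limits the precision.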
